A study of Homo sapiens with 15 samples.

Results

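The 150 genes described here had a low mean transcript level in the middle hours of a response to epidermal growth factor (EGF), from 4 to 8 h after EGF was added, and lay higher both before and after. They are called trough genes below. They were chosen by their measured values. For each gene the mean level at 4, 6 and 8 h was subtracted from the mean level at 0.5, 1 and 2 h and from the mean level at 18, 24 and 48 h, with equal weight for each time (the early and the late level below), and the smaller of both differences, called the trough depth, was ranked. The 150 largest depths were taken from 6514 eligible genes, which had a mean score of 0.5 or more, out of 14675 genes measured under a symbol, so that the trough genes were 2.30% of the eligible genes. Symbols starting with MIR, SNOR, SCARNA, LOC, RNU, DUSP, EGR, ZNF or SLC had been set aside beforehand, so no gene of these families could be chosen. Because the levels of these windows chose the genes, the trough itself is a description and carries no test.

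Cells were H1975, an established line of human non-small cell lung cancer of adenocarcinoma type, which grow as epithelium and carry a mutated EGF receptor. All cells had been starved of serum overnight, all then received EGF at 50 ng/ml in serum-free medium, and RNA was hybridised to Affymetrix GeneChip Human Gene 2.0 ST arrays. The 15 arrays comprised 2 at 0.5 h, 3 at 24 h, 3 at 48 h and 1 at each of 1, 2, 4, 6, 8, 12 and 18 h. The 18 h time is that of the sample's labels and is not among the harvest times of the protocol, and without this array 133 of the 150 genes were chosen again. Unstimulated cells were not analysed here, so time after EGF and time without serum cannot be told apart in these arrays, and nothing states whether the replicates came from separate cultures. Levels are SCAN scores, which the authors obtained by correcting and standardising each array on its own on a log scale. A difference of scores is therefore a shift relative to the other probe sets of the array, and is not a fold change. Apart from the mean score limit and the cell type markers, score levels are not compared between genes. Where genes are ranked below, it is by differences on this scale.

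EGF binds its receptor tyrosine kinase and switches on the ERK kinase cascade. Within minutes this cascade activates serum response factor and its partners, which drive the immediate-early genes, and many of these encode transcription factors or inhibitors of the pathway itself. The inhibitors and the rapid decay of their mRNAs close the first wave. The Period genes PER1 and PER2, prostaglandin synthase 2 and several secreted factors belong to the same class of rapidly and briefly induced transcripts in many cell types.

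Array medians over the 39937 probe sets of the table ranged from 0.0644 to 0.0789. Epithelial markers KRT7, KRT8, KRT18, KRT19, EPCAM and NKX2-1 had mean scores between 0.812 and 2.89, while CD14, LUM, DCN and VWF, the markers of blood, fibroblast and endothelial cells that were measured (4 of 14), lay between -0.0981 and 0.0839. The median SD between replicates of the trough genes was 0.0269 for the 2 arrays of 0.5 h, 0.0306 for the 3 of 24 h and 0.0276 for the 3 of 48 h.

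The depth of the trough ranged from 0.284 for JUN through a median of 0.0787 to 0.0538 for KLHL18. The last genes taken were VPS51, DOCK6, EIF4E3 and KLHL18 with depths of 0.0544, 0.0543, 0.0539 and 0.0538. The first genes left out were FOXD4, CREB5, HBEGF and KLF10 with 0.0536, 0.0531, 0.0529 and 0.0524, so the edge of the set is not a gap. All 3 arrays from 4 to 8 h lay below every array of both outer windows in 43 trough genes, and in 46 of the 6514 eligible genes.

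Among single times, 4 h was the lowest for 70 trough genes, 6 h for 34, 8 h for 19 and 12 h for 17, and the remaining 10 genes had their lowest value from 0.5 to 2 h, where 1 of the early times was lower than the trough. The highest time was 48 h for 71 genes, 1 h for 24, 2 h for 19, 0.5 h for 13, 18 h for 10, 24 h for 7 and 12 h for 6. Relative to each gene's own mean from 4 to 8 h, the median trough gene stood at 0.0820 at 0.5 h, 0.111 at 1 h and 0.0937 at 2 h, then at -0.0251 at 4 h and 0.0252 at 8 h, and at 0.0420 at 12 h, 0.0973 at 18 h, 0.102 at 24 h and 0.173 at 48 h. The low values from 4 to 8 h between higher ones are what the choice required.

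**Figure D1:**
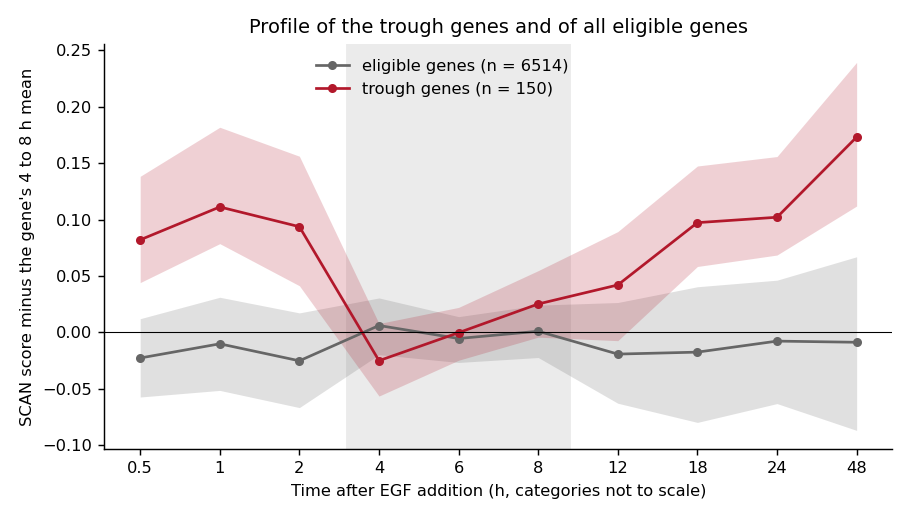
Median score of the 150 trough genes (red) and of the 6514 eligible genes (grey) at each time after EGF, each gene taken relative to its own mean from 4 to 8 h, with the band from the first to the third quartile. The chosen genes stood at 0.111 at 1 h and 0.173 at 48 h, while the medians of the eligible genes stayed between -0.0252 and 0.00607.

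In a limma model with time as a factor (Benjamini-Hochberg adjustment over 14675 genes, calls at an adjusted p under 0.05), the score from 4 to 8 h was lower than from 0.5 to 2 h in 1.71% of all genes and lower than from 18 to 48 h in 10.4%. These contrasts chose the trough genes, of which 62 and 125 were called, and nothing is read from those counts. Values after ± are standard errors of this model unless stated otherwise, and the counts given for lists below include their trough genes. Both contrasts together called 65 genes of the whole table, 52 of them trough genes. A total of 30 lists of genes with a shared role, drawn up with earlier results of these data known, held 501 measured entries, and 32 trough genes stood on at least 1 of them. The genes are described below by their roles.

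**Figure D2:**
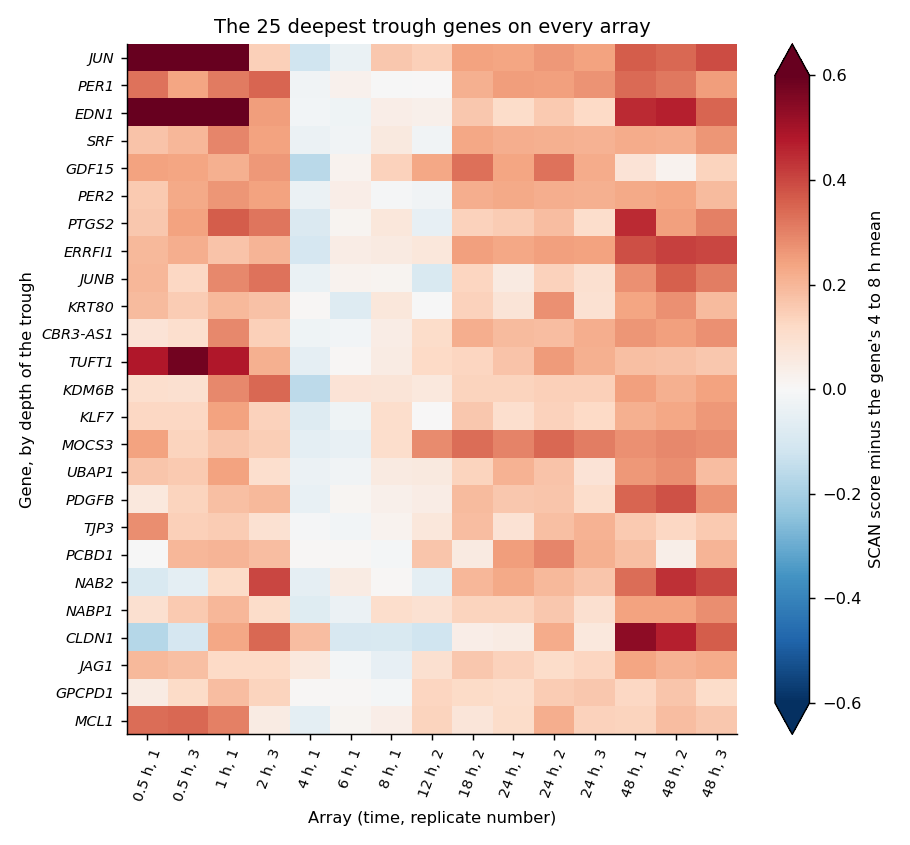
Scores of the 25 deepest trough genes on all 15 arrays, each row relative to the gene's own mean from 4 to 8 h (red higher, blue lower, colours saturate at 0.6 either way). The columns of 4, 6 and 8 h are pale or blue in nearly all rows. JUN, EDN1 and TUFT1 are darkest at 0.5 and 1 h, ERRFI1 and CLDN1 at 48 h, and NAB2 at 2 and 48 h.

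Transcription factors of the immediate-early class are described first. Among the 10 deepest genes they were JUN, SRF and JUNB. JUN, an AP-1 subunit, had the deepest trough. Its scores were 1.95 and 1.91 at 0.5 h, 1.86 at 1 h, 1.30 at 2 h, 1.03 at 4 h, 1.12 at 6 h and 1.31 at 8 h. The later arrays gave 1.30 at 12 h, 1.39 at 18 h, 1.39, 1.42 and 1.39 at 24 h, and 1.52, 1.50 and 1.55 at 48 h. The level at 2 h was already far below that at 1 h, and no later array came back to the first 3. JUNB, the AP-1 subunit whose gene answers the same signals, had scores of 1.91 and 1.83 at 0.5 h, 2.00 at 1 h, 2.03 at 2 h, 1.67 at 4 h, 1.73 at 6 h and 1.72 at 8 h. Afterwards the scores were 1.62 at 12 h, 1.84 at 18 h, 1.76, 1.85 and 1.80 at 24 h, and 1.98, 2.06 and 2.01 at 48 h. Unlike JUN it was highest at 2 h and 48 h, and its lowest array was that of 12 h. SRF, the factor that binds serum response elements, had scores of 1.52 and 1.54 at 0.5 h, 1.64 at 1 h, 1.59 at 2 h, 1.31 at 4 h, 1.33 at 6 h and 1.40 at 8 h. The arrays that followed gave 1.33 at 12 h, 1.58 at 18 h, 1.56, 1.56 and 1.55 at 24 h, and 1.57, 1.57 and 1.61 at 48 h. All arrays of the outer windows lay above those of 4, 6, 8 and 12 h, and the levels before and after the trough overlapped.

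IER3, an immediate-early gene tied to cell survival, averaged 1.66 from 0.5 to 2 h, 1.35 from 4 to 8 h and 1.43 from 18 to 48 h, so most of its first peak was not regained. IER2, a nuclear immediate-early protein, averaged 0.747 from 0.5 to 2 h, 0.615 from 4 to 8 h and 0.687 from 18 to 48 h. KLF7, a Krüppel-like zinc finger factor, averaged 1.56 from 0.5 to 2 h, 1.39 from 4 to 8 h and 1.56 from 18 to 48 h and was lowest at 4 h with 1.31. NAB2, a corepressor that holds EGR factors in check, differed in shape. It scored 0.828 and 0.864 at 0.5 h, 1.03 at 1 h and 1.32 at 2 h, then 0.867, 0.968 and 0.927 from 4 to 8 h, and 1.26 to 1.36 at 48 h. Its 0.5 h arrays lay below those of the trough, and its trough separates a peak at 2 h from the late rise.

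The list of immediate-early transcription factors held 22 measured genes. Of these, 19 were called lower from 4 to 8 h than from 0.5 to 2 h and 7 lower than from 18 to 48 h, with 6 in both. The median differences over the list were -0.215 and -0.0471, and those over all genes were 0.00862 and 0.00448. The 5 trough genes on the list were JUN, SRF, JUNB, IER3 and IER2. EGR1, the founding EGR factor, was lower from 4 to 8 h by both contrasts (limma differences -0.891 ± 0.0280, adjusted p = 4.87e-13, and -0.433 ± 0.0257, adjusted p = 6.11e-10) and was kept out by its symbol alone. FOS, the partner of JUN in AP-1, was also lower by both (-0.350 ± 0.0262, adjusted p = 1.74e-07, and -0.170 ± 0.0242, adjusted p = 3.61e-05), but its mean score of 0.371 was below the limit. MYC, the growth regulator, was lower than early (-0.290 ± 0.0277, adjusted p = 4.05e-06) with a difference from the late window of 0.0237 ± 0.0255, adjusted p = 0.578. FOSL1, a later AP-1 subunit, was lower than early (-0.230 ± 0.0260, adjusted p = 2.67e-05) but higher than late (0.108 ± 0.0240, adjusted p = 0.00249).

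Promoters were available for 123 of the 150 trough genes, for 5428 eligible genes and for 10707 genes in all (RefSeq, build GRCh38.p14, 250 bases before to 50 after the start, both strands searched). The serum response element, the site of SRF, was present in the promoters of 4 trough genes (3.25%), against 1.07% of eligible and 1.22% of all promoters. These were SRF itself, YBX3, ATXN1 and FILIP1L, and they were named after their promoters had been searched. Stretches of 150 bases from upstream of the start site are printed because they hold this element, which stands in capitals. In SRF, YBX3 and FILIP1L they run from 150 to 1 bases before the start, and in ATXN1 from 250 to 101. They are SRF at chr6:43171119-43171268 (plus strand), YBX3 at chr12:10723324-10723473 (minus strand), ATXN1 at chr6:16761561-16761710 (minus strand) and FILIP1L at chr3:99876174-99876323 (minus strand), each read 5′ to 3′ on the strand of the gene.
SRF: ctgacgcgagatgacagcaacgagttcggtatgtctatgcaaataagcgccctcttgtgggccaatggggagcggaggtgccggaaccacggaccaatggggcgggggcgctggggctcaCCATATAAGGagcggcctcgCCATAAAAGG
YBX3: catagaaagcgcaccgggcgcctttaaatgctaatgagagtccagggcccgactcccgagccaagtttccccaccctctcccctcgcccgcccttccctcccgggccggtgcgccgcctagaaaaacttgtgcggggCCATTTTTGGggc
ATXN1: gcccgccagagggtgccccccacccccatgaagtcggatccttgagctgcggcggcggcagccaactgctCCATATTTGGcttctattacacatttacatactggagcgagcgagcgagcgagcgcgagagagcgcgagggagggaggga
FILIP1L: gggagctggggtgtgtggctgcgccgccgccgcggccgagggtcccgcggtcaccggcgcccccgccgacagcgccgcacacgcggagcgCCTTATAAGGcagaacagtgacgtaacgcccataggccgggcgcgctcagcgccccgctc

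The promoter of SRF holds the element a pair of times, at 30 and 10 bases before the start counted from the first base of each. Of the other motifs, the AP-1 site TGANTCA was found in 8 trough gene promoters (6.50%, against 4.22% of eligible and 5.86% of all), the cyclic AMP response element TGACGTCA in 7 (5.69%, 3.46% and 2.62%), the E-box CACGTG in 9 (7.32%, 10.7% and 9.04%) and the TATA box TATAAA in 11 (8.94%, 4.81% and 8.48%). The TEAD site GGAATG was found in 13 (10.6%, 10.3% and 11.6%), the CCAAT box CCAAT in 44 (35.8%, 37.5% and 36.0%), the FOXO site TGTTTAC in 2 (1.63%, 2.51% and 2.59%), the EGR site GCGTGGGCG in 2 (1.63%, 1.49% and 1.21%), the E2F site, TTTCCCGC or TTTGGCGC, in 3 (2.44%, 4.29% and 3.08%) and the ATF4 and CEBP composite TGATGCAA in 2 (1.63%, 0.497% and 0.654%). Motifs can overlap, as a serum response element can hold a TATA box, and a match is only a match of letters. The median GC share of the promoters was 66.7% in trough genes, 65.7% in eligible genes and 63.3% in all. The stretch of PER1 at chr17:8152505-8152654 (minus strand) holds an E-box, the motif that the clock factors CLOCK and BMAL1 bind, and that of CXCL8 at chr4:73740379-73740528 (plus strand) an AP-1 site, the motif of JUN and FOS dimers. They are shown with these motifs in capitals because both genes are described below. The PER1 stretch runs from 250 to 101 bases before the start, that of CXCL8 from 190 to 41. The letters CACGTG were not found in the promoters of PER2 and PER3, and other forms of the E-box were not searched. Among other trough genes of secreted or membrane-bound signals, EDN1, PTGS2, GDF15, JAG1 and IL24 had no AP-1 site.
PER1: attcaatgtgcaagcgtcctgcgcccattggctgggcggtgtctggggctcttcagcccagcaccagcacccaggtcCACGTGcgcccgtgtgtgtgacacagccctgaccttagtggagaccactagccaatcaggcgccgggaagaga
CXCL8: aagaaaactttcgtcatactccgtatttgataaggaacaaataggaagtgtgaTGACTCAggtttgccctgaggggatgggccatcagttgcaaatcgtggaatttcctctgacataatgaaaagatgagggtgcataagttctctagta

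Feedback inhibitors of the pathway were the next group. ERRFI1, which binds and inhibits the EGF receptor kinase, had scores of 2.95 and 2.97 at 0.5 h, 2.92 at 1 h, 2.96 at 2 h, 2.65 at 4 h, 2.80 at 6 h and 2.80 at 8 h. Later scores were 2.82 at 12 h, 3.00 at 18 h, 2.99, 3.00 and 3.00 at 24 h, and 3.14, 3.16 and 3.15 at 48 h. The 3 arrays of 48 h stood above all others, and the 4 h array below all others. SPRY4, a Sprouty inhibitor of receptor signalling to ERK, had scores of 1.05 and 1.09 at 0.5 h, 1.26 at 1 h, 1.39 at 2 h, 0.917 at 4 h, 1.24 at 6 h and 1.14 at 8 h. From 12 h on they were 1.08 at 12 h, 1.20 at 18 h, 1.15, 1.16 and 1.14 at 24 h, and 1.28, 1.29 and 1.29 at 48 h. Its 4 h array was the lowest of all, and the scores at 6 and 8 h lay within the range of the 0.5 and 1 h arrays.

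Of 17 measured feedback regulators of ERK and EGFR signalling, 8 were called lower from 4 to 8 h than early, 10 lower than late and 5 both. The medians were -0.0802 and -0.107. Besides ERRFI1, SPRY4 and IER3, the genes called in both were DUSP1 and DUSP6, phosphatases of MAP kinases, whose symbols were set aside. DUSP6 differed by -0.178 ± 0.0255, adjusted p = 0.000333, from the early window and by -0.258 ± 0.0235, adjusted p = 1.7e-07, from the late one. SPRY2, the relative of SPRY4, was lower than late (-0.242 ± 0.0282, adjusted p = 3.65e-06), while its difference from the early window was -0.0281 ± 0.0306, adjusted p = 0.691. DUSP5, another MAP kinase phosphatase, was called lower only against the early window (limma difference -0.321 ± 0.0405, adjusted p = 8.81e-05). Its difference from the late window was -0.0626 ± 0.0374, adjusted p = 0.268.

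All 3 Period genes, which encode repressors of the circadian clock, were among the trough genes. PER1 had scores of 0.891 and 0.802 at 0.5 h, 0.878 at 1 h, 0.916 at 2 h, 0.543 at 4 h, 0.591 at 6 h and 0.563 at 8 h. The later arrays gave 0.569 at 12 h, 0.779 at 18 h, 0.816, 0.811 and 0.833 at 24 h, and 0.906, 0.882 and 0.819 at 48 h. The 12 h array lay between those of 4 and 6 h, and all arrays of the outer windows lay at 0.779 or above. PER2 had scores of 0.673 and 0.747 at 0.5 h, 0.785 at 1 h, 0.757 at 2 h, 0.481 at 4 h, 0.559 at 6 h and 0.513 at 8 h. Afterwards the scores were 0.496 at 12 h, 0.735 at 18 h, 0.745, 0.737 and 0.733 at 24 h, and 0.744, 0.755 and 0.710 at 48 h. PER3 had scores of 0.635 and 0.609 at 0.5 h, 0.665 at 1 h, 0.707 at 2 h, 0.544 at 4 h, 0.589 at 6 h and 0.514 at 8 h. The arrays that followed gave 0.510 at 12 h, 0.697 at 18 h, 0.719, 0.735 and 0.715 at 24 h, and 0.700, 0.671 and 0.665 at 48 h. In PER2 and PER3 too, the 12 h array was at the level of the trough and neither outer window overlapped with 4 to 8 h. From 18 h on, the PER2 arrays lay within the range of its early arrays. Those of PER3 did so at 18 and 48 h and lay above that range at 24 h.

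Of 12 measured clock genes, these 3 were called lower from 4 to 8 h by both contrasts and none was called higher than early. Against the late window 7 were lower, with medians over the list of -0.0273 against early and -0.0941 against late. BMAL1, the activator that Period proteins oppose, was higher from 4 to 8 h than late (0.250 ± 0.0314, adjusted p = 9.06e-06), as was CRY1, a partner of the Period proteins (0.0738 ± 0.0244, adjusted p = 0.0332). DBP, an output gene of the clock, was lower than late (-0.170 ± 0.0266, adjusted p = 9.82e-05). CLOCK, the partner of BMAL1, differed by 0.0564 ± 0.0263, adjusted p = 0.140, from the late window.

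Genes of secreted signals formed a further group. EDN1, the precursor of the vasoconstrictor endothelin-1, had scores of 1.00 and 0.987 at 0.5 h, 1.18 at 1 h, 0.637 at 2 h, 0.370 at 4 h, 0.360 at 6 h and 0.424 at 8 h. Later scores were 0.415 at 12 h, 0.545 at 18 h, 0.496, 0.540 and 0.503 at 24 h, and 0.830, 0.850 and 0.734 at 48 h. It was highest at 1 h, and between the trough and 24 h it gained little before the 48 h arrays. PTGS2, the inducible cyclooxygenase of prostaglandin synthesis, had scores of 1.47 and 1.55 at 0.5 h, 1.67 at 1 h, 1.63 at 2 h, 1.22 at 4 h, 1.32 at 6 h and 1.38 at 8 h. From 12 h on they were 1.26 at 12 h, 1.44 at 18 h, 1.46, 1.49 and 1.41 at 24 h, and 1.76, 1.55 and 1.61 at 48 h. Its 12 h array was nearly as low as that of 4 h, and its 48 h arrays spread widely. GDF15, a stress-induced cytokine of the TGF-beta family, had scores of 1.66 and 1.66 at 0.5 h, 1.63 at 1 h, 1.68 at 2 h, 1.26 at 4 h, 1.44 at 6 h and 1.56 at 8 h. The later arrays gave 1.65 at 12 h, 1.75 at 18 h, 1.66, 1.75 and 1.64 at 24 h, and 1.50, 1.44 and 1.56 at 48 h. Of these 3 genes it alone had all of its 48 h arrays below those of 24 h.

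PDGFB, the B chain of platelet-derived growth factor, averaged 0.576 from 0.5 to 2 h, 0.417 from 4 to 8 h and 0.640 from 18 to 48 h. JAG1, a membrane-bound Notch ligand, averaged 2.31 from 0.5 to 2 h, 2.16 from 4 to 8 h and 2.33 from 18 to 48 h, and was lowest at 8 h with 2.12. CXCL8, the neutrophil chemokine interleukin 8, averaged 0.945 from 0.5 to 2 h, 0.427 from 4 to 8 h and 0.525 from 18 to 48 h, so its early peak was recovered only in small part. IL24, a cytokine of the interleukin 10 family, averaged 0.674 from 0.5 to 2 h, 0.577 from 4 to 8 h and 0.644 from 18 to 48 h, and was highest at 2 h with 0.844. Over the 18 measured cytokines and chemokines, 3 were lower than early, 1 lower than late and none both.

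**Figure D3:**
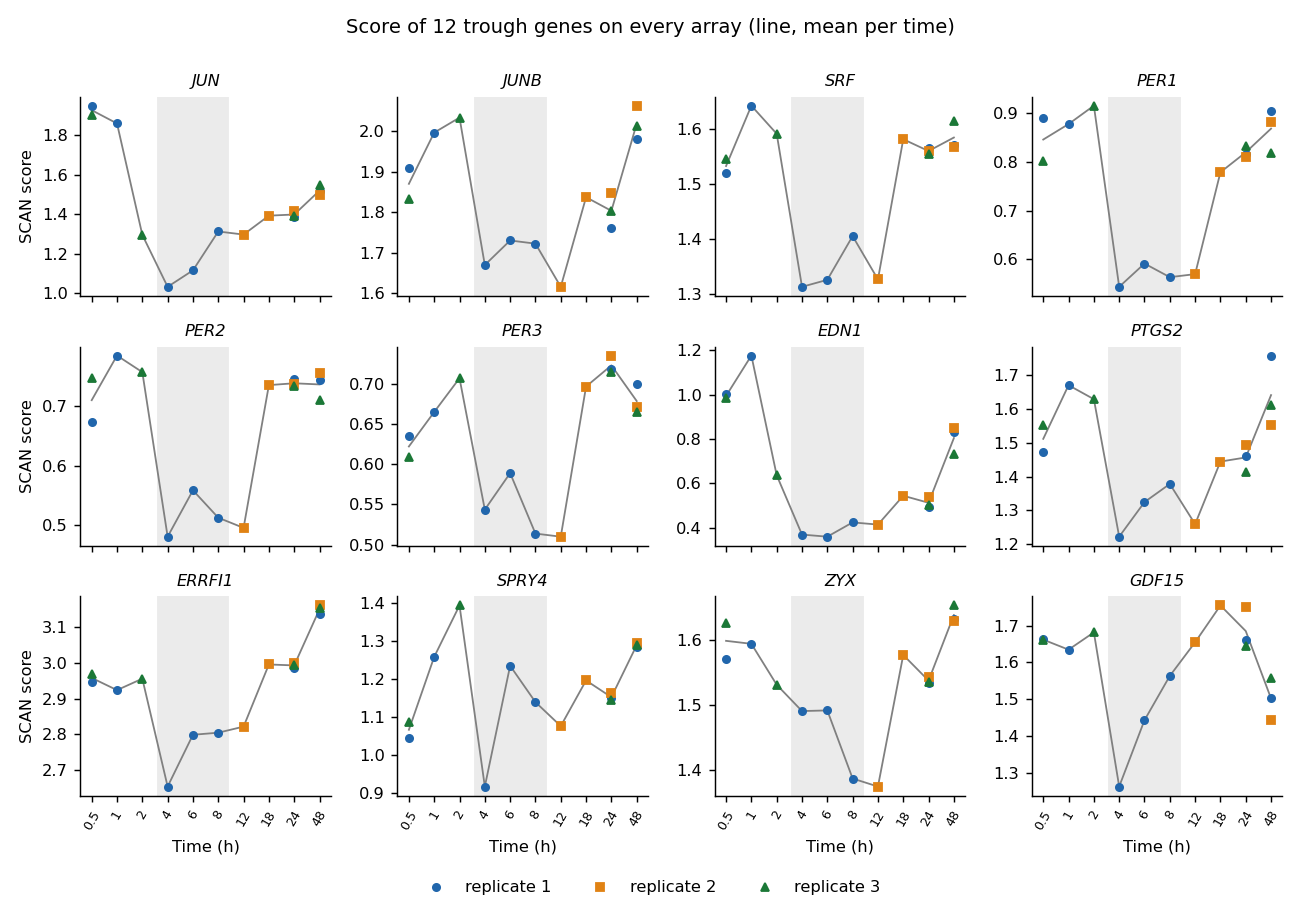
Scores of 12 trough genes on every array (circles, squares and triangles for replicates 1, 2 and 3, grey line through the mean of each time, times evenly spaced, grey band from 4 to 8 h, each panel with its own score axis). JUN and EDN1 did not return to their early level, PER2 and SRF were within the range of their early arrays from 18 h on, PER1 from 24 h on, and ERRFI1 ended above it at 48 h.

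Genes of the actin cytoskeleton and of adhesion that answer to YAP and serum response factor gave 7 trough genes out of 17 measured on that list, where 6 were called lower from 4 to 8 h than early, 9 lower than late and 4 both, with medians of -0.0752 and -0.0794. ZYX, the focal adhesion protein zyxin, had scores of 1.57 and 1.63 at 0.5 h, 1.59 at 1 h, 1.53 at 2 h, 1.49 at 4 h, 1.49 at 6 h and 1.39 at 8 h. Afterwards the scores were 1.37 at 12 h, 1.58 at 18 h, 1.53, 1.54 and 1.54 at 24 h, and 1.63, 1.63 and 1.65 at 48 h. Its low point came late in the window, where the scores of 8 and 12 h were lower than those of 4 and 6 h. TPM1, an actin-binding tropomyosin, averaged 1.17 from 0.5 to 2 h, 0.924 from 4 to 8 h and 1.03 from 18 to 48 h, and its scores at 0.5 h, 1.40 and 1.42, were far above every later array. THBS1, the matrix glycoprotein thrombospondin-1, averaged 2.20 from 0.5 to 2 h, 1.89 from 4 to 8 h and 1.97 from 18 to 48 h. AMOTL2, an angiomotin relative that binds YAP, averaged 0.807 from 0.5 to 2 h, 0.641 from 4 to 8 h and 0.728 from 18 to 48 h. The averages of AJUBA, a LIM-domain adaptor, were 1.16 from 0.5 to 2 h, 1.06 from 4 to 8 h and 1.23 from 18 to 48 h, and those of VCL, the adhesion protein vinculin, were 2.58 from 0.5 to 2 h, 2.49 from 4 to 8 h and 2.64 from 18 to 48 h. FILIP1L averaged 0.730 from 0.5 to 2 h, 0.674 from 4 to 8 h and 0.822 from 18 to 48 h. The list was not uniform: CCN2, a secreted matrix protein and classical YAP target, was lower than early (-1.57 ± 0.0356, adjusted p = 3.6e-15) with -0.0507 ± 0.0328, adjusted p = 0.313 against the late window, and AXL, a receptor tyrosine kinase, was higher than late (0.124 ± 0.0252, adjusted p = 0.00118).

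Among epithelial structural genes, CLDN1, a tight junction claudin, had scores of 0.778 and 0.847 at 0.5 h, 1.18 at 1 h, 1.30 at 2 h, 1.13 at 4 h, 0.856 at 6 h and 0.860 at 8 h. The arrays that followed gave 0.829 at 12 h, 0.992 at 18 h, 0.999, 1.17 and 1.01 at 24 h, and 1.49, 1.42 and 1.31 at 48 h. Its 0.5 h arrays were as low as those of 6 and 8 h, the 4 h array was high, and the 48 h arrays were the highest. TJP3, the junction scaffold ZO-3, averaged 1.40 from 0.5 to 2 h, 1.25 from 4 to 8 h and 1.42 from 18 to 48 h, and KRT80, a type II keratin, averaged 1.45 from 0.5 to 2 h, 1.27 from 4 to 8 h and 1.44 from 18 to 48 h. Of 15 measured junction and adhesion genes, 11 were called lower from 4 to 8 h than late but only 1, TJP3, lower than early, and the median differences were -0.00801 from early and -0.0989 from late. TUFT1, a protein first described in tooth enamel, was highest in the first hour. Its scores were 1.41 and 1.52 at 0.5 h, 1.42 at 1 h, 1.15 at 2 h, 0.884 at 4 h, 0.942 at 6 h and 0.984 at 8 h. Later scores were 1.06 at 12 h, 1.06 at 18 h, 1.11, 1.19 and 1.15 at 24 h, and 1.12, 1.11 and 1.10 at 48 h. From 12 h on it stayed above the trough and below every array of 0.5 and 1 h.

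Stress genes were represented by DDIT3, the proapoptotic factor CHOP, which averaged 1.20 from 0.5 to 2 h, 1.11 from 4 to 8 h and 1.27 from 18 to 48 h, STC2, a secreted stanniocalcin, which averaged 1.07 from 0.5 to 2 h, 0.994 from 4 to 8 h and 1.23 from 18 to 48 h, and ASNS, the asparagine synthetase, which averaged 1.15 from 0.5 to 2 h, 1.09 from 4 to 8 h and 1.34 from 18 to 48 h. Of the 15 measured genes of ATF4 and the unfolded protein response, 10 were called lower from 4 to 8 h than late and none lower than early. MCL1, a short-lived survival protein of the BCL2 family, averaged 2.03 from 0.5 to 2 h, 1.80 from 4 to 8 h and 1.93 from 18 to 48 h. Its first 3 arrays lay between 2.10 and 2.14, and all later ones at 2.01 or below. The list of 13 measured p53 targets gave GDF15 as its only trough gene.

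The remaining genes among the 25 deepest had varied roles. KDM6B, a demethylase of histone H3, had scores of 0.936 and 0.930 at 0.5 h, 1.12 at 1 h, 1.18 at 2 h, 0.676 at 4 h, 0.914 at 6 h and 0.909 at 8 h. From 12 h on they were 0.894 at 12 h, 0.967 at 18 h, 0.965, 0.976 and 0.976 at 24 h, and 1.08, 1.05 and 1.07 at 48 h. Its low point was a single array, that of 4 h. MOCS3, an enzyme of molybdenum cofactor synthesis, averaged 1.11 from 0.5 to 2 h, 0.943 from 4 to 8 h and 1.25 from 18 to 48 h. UBAP1, a subunit of the ESCRT-I sorting complex, averaged 2.12 from 0.5 to 2 h, 1.95 from 4 to 8 h and 2.13 from 18 to 48 h. In MOCS3 all arrays from 12 h on lay above all early arrays, which was not so in UBAP1. CBR3-AS1, a long noncoding RNA antisense to the carbonyl reductase gene CBR3, averaged 1.20 from 0.5 to 2 h, 1.02 from 4 to 8 h and 1.25 from 18 to 48 h. PCBD1, a dehydratase that also stabilises HNF1 dimers, averaged 1.31 from 0.5 to 2 h, 1.15 from 4 to 8 h and 1.29 from 18 to 48 h, NABP1, a single-stranded DNA binding protein, 2.22 from 0.5 to 2 h, 2.08 from 4 to 8 h and 2.25 from 18 to 48 h, and GPCPD1, a glycerophosphocholine phosphodiesterase, 1.60 from 0.5 to 2 h, 1.46 from 4 to 8 h and 1.59 from 18 to 48 h. By biotype, 143 of the trough genes were protein-coding and 7 noncoding (5 long noncoding RNAs and 2 transcribed pseudogenes).

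Several lists gave no trough gene. Of the 25 measured FOXO targets and quiescence genes, 0 were called lower from 4 to 8 h than early and 15 lower than late. All 24 measured S phase genes and all 24 G2 and M phase genes were called higher from 4 to 8 h than late. Their medians were 0.528 and 0.417, the reverse of the trough genes. This call was made in 14.1% of all genes and in 24.9% of eligible genes. Hypoxia, interferon, NF-kappa-B, Wnt, cholesterol, lysosome, receptor tyrosine kinase and EGF ligand lists likewise held none. These lists are short (9 NF-kappa-B targets and 17 Wnt pathway genes were measured), so an empty list does not show that a pathway was absent. The trough genes PTGS2, CXCL8 and IER3 were not on the NF-kappa-B list, nor BCL9 and BCL9L on the Wnt list. Single trough genes or pairs stood on the lists of TGF-beta and BMP targets (SKIL and SMURF1, both inhibitors of SMAD signalling, of 12 measured), chromatin (KDM6B and BCL9L, a coactivator of beta-catenin, of 35), Notch (JAG1, of 14), adaptors and the PI3K pathway (DEPTOR, of 16) and splicing (SRSF6, a splicing factor rich in serine and arginine, of 24).

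The levels before and after the trough were close in most of the set, but also in most eligible genes, so this is not particular to the trough genes. Both levels lay within 0.2 of each other in 140 trough genes. The early level was higher by over 0.2 in 7 and the late level in 3, against 387 and 309 of the 6514 eligible genes. The smaller side was the early one in 94 trough genes and the late one in 56. The largest excess of the early over the late level was found in CXCL8 (0.421), SNX18, a sorting nexin of endocytosis (0.328), EDN1 (0.315), JUN (0.258), IER3 (0.237), TUFT1 (0.237), THBS1 (0.229) and ZNG1A (0.179). The largest excess of the late level was found in RNF225, a RING finger protein (0.366 on the score scale), ZSCAN4, a zinc finger factor known from the early mouse embryo (0.332), MYO3B, an unconventional myosin (0.265), ASNS (0.193), R3HDM2 (0.166), NCOA7 (0.165), CTF1, the cytokine cardiotrophin-1 (0.164) and STC2 (0.163). RNF225 had scores of 1.07 and 1.10 at 0.5 h, 0.994 at 1 h, 1.04 at 2 h, 0.888 at 4 h, 0.856 at 6 h and 0.993 at 8 h. The later arrays gave 1.11 at 12 h, 1.36 at 18 h, 1.18, 1.32 and 1.23 at 24 h, and 1.64, 1.59 and 1.60 at 48 h. Its trough was a shallow step, and the 48 h arrays were the highest.

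**Figure D4:**
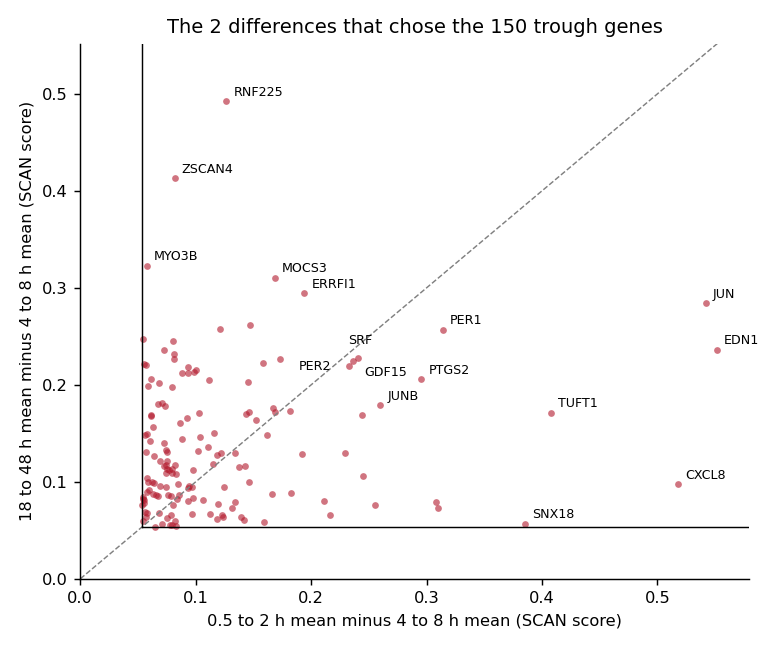
Each point is 1 of the 150 trough genes, with the mean from 0.5 to 2 h minus the mean from 4 to 8 h on the horizontal axis and the mean from 18 to 48 h minus the same trough mean on the vertical axis, both in SCAN scores. Solid lines mark the smallest depth taken (0.0538) and the dashed line equal differences. CXCL8, SNX18, EDN1 and JUN lie far below it, and RNF225, ZSCAN4 and MYO3B far above it.

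The 12 h array entered neither window of the choice. It lay above all of the 4, 6 and 8 h arrays in 70 trough genes (46.7%), below all of them in 20 and among them in 60. Among eligible genes it lay above in 21.9%. In 129 trough genes (86.0%) it was below the late mean, against 53.7% of eligible genes. The median trough gene stood 0.0420 above its trough mean at 12 h and 0.0914 below its late mean. MOCS3 and GDF15 were among those with a 12 h array above the trough, whereas the 12 h arrays of JUNB, ZYX and PER3 were their lowest of all. Since the trough level had been chosen low, any other array tends to lie above it, and these shares are given without a test.

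Within the late window, 24 h and 48 h entered the choice with equal weight and 3 arrays each, so their difference was not ranked. A gene could still enter through a high level at either time. The test is to that extent not free of the choice, and its calls are given as a description of the set. Trough genes were mostly lower at 24 h than at 48 h. Of the 150, 54 were called lower at 24 h (36.0%) and 6 higher (4.00%), where 6.19% and 6.68% of all 14675 genes and 10.8% and 12.1% of eligible genes were called (limma, time as a factor). The median difference was -0.0620, against 0.00172 for eligible genes, and 117 trough genes had a difference below 0 (49.0% of eligible genes). All 24 h arrays lay below all 48 h arrays in 81 trough genes (54.0%, against 20.4% of eligible genes), and above them in 13 (8.67%, against 22.0%).

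The lowest differences were those of RNF225 (24 h minus 48 h -0.364 ± 0.0333, adjusted p = 3.54e-07 by limma), CLDN1 (-0.344 ± 0.0450, adjusted p = 2.91e-05) and EDN1 (-0.292 ± 0.0312, adjusted p = 2.6e-06). They were followed by PCDH7, a protocadherin, with -0.252 ± 0.0281, DEPTOR, an inhibitor of mTOR, with -0.251 ± 0.0341, FILIP1L with -0.236 ± 0.0297, C1orf116 with -0.225 ± 0.0331 and JUNB with -0.215 ± 0.0320, all called. ERRFI1, SPRY4 and NAB2, inhibitors of receptor signalling and of EGR factors, were also called, with -0.158 ± 0.0257, -0.137 ± 0.0260 and -0.193 ± 0.0307.

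The 6 genes called higher at 24 h were GDF15 (0.183 ± 0.0337, adjusted p = 0.000998 by limma), HKDC1, a hexokinase domain protein (0.171 ± 0.0341), VAV1, a signalling protein known from blood cells (0.126 ± 0.0295), MEX3A, an RNA-binding protein (0.121 ± 0.0260), LINC01106, a long noncoding RNA (0.0935 ± 0.0265) and CCDC9 (0.0907 ± 0.0290). The Period genes were not among the called: PER1 differed by -0.0488 ± 0.0308 (adjusted p = 0.375), PER2 by 0.00199 ± 0.0280 (0.979) and PER3 by 0.0443 ± 0.0261 (0.334). SRF differed by -0.0246 ± 0.0264 (adjusted p = 0.646). Without 24 h replicate 1 or without 48 h replicate 1 the count of trough genes called was 47 rather than 60, and the calls of 18 genes, CXCL8, KDM6B, JAG1, ZYX, YBX3, SRSF6, LINC01106 and CCDC9 among them, were lost when at least 1 of the arrays was left out.

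**Figure D5:**
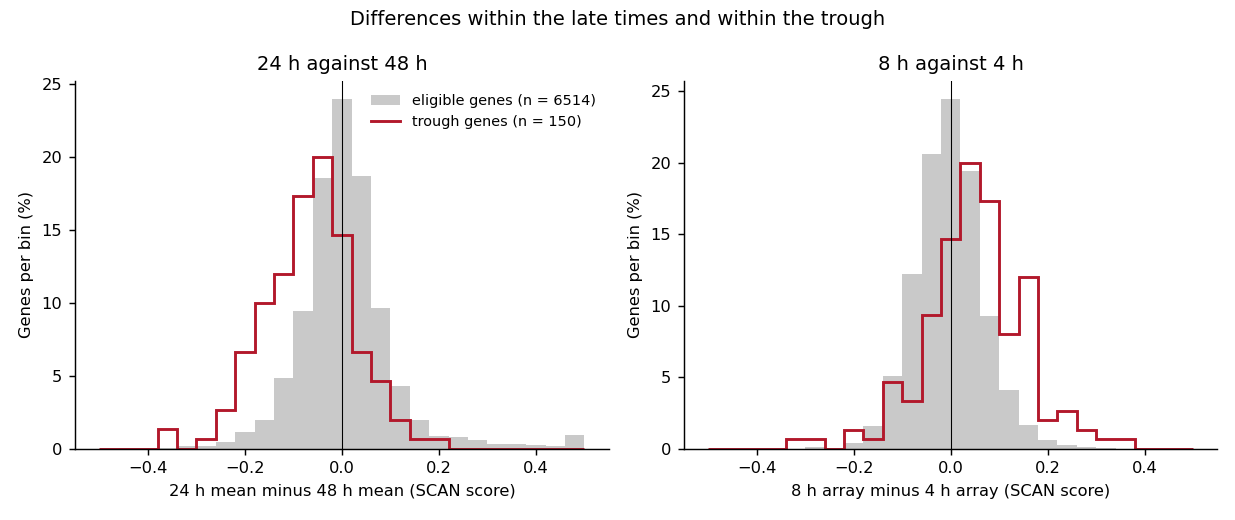
Share of genes per bin of the 24 h minus 48 h difference (left) and of the 8 h minus 4 h difference (right), in SCAN scores, for the 150 trough genes (red line) and the 6514 eligible genes (grey), with values beyond the axis counted in the outermost bins. The trough genes are shifted to the left at 24 h against 48 h (median -0.0620) and to the right at 8 h against 4 h (median 0.0516).

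Within the trough, 4 h and 8 h also had equal weight, but with 1 array each. A gene could enter through 1 low array, so the differences between these arrays are given as a description and nothing is read from their calls. Of the trough genes, 107 were higher at 8 h than at 4 h (against 47.1% of eligible genes) and the median difference was 0.0516, against -0.00478. The highest differences were those of ZNG1A (0.362 ± 0.0473), GDF15 (0.300 ± 0.0583), JUN (0.281 ± 0.0471) and C1orf116 (0.270 ± 0.0573). The scores of ZNG1A were 2.34 at 4 h, 2.52 at 6 h and 2.70 at 8 h, against a late mean of 2.59, so its trough lay in the 4 and 6 h arrays. In limma, which assumes that single arrays vary like those of the replicated times, ZNG1A and JUN were called, and 0.0409% of all genes were called higher and 0.00681% lower. The call of JUN was lost in 6 of the alternatives run (centring, quantile normalisation, the replicate block, and leaving out 24 h replicate 3, 48 h replicate 2 or 48 h replicate 3), with an adjusted p of up to 0.0875. Without 24 h replicate 2, 4 trough genes and 16 genes in all were called.

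At the other end, UBE2K, a ubiquitin-conjugating enzyme, differed by -0.316 ± 0.0909 and CLDN1 by -0.274 ± 0.0780, followed by CPT1A, the gate of fatty acids into mitochondria, with -0.197 ± 0.0469 and SOX4, a developmental factor, with -0.182 ± 0.0485. None of the 4 was called (limma adjusted p between 0.157 and 0.243). The scores of UBE2K stood at a pair of levels that did not follow time. They were 2.85 and 2.92 at 0.5 h, 2.92 at 1 h, 2.93 at 2 h, 2.97 at 4 h, 2.64 at 6 h and 2.65 at 8 h. Afterwards the scores were 2.98 at 12 h, 2.66 at 18 h, 2.92, 2.65 and 2.93 at 24 h, and 2.97, 2.92 and 2.94 at 48 h. They formed a low group of 4 arrays between 2.64 and 2.66 (6 h, 8 h, 18 h and 24 h replicate 2) and a high group of 11 between 2.85 and 2.98, and the replicates of 24 h were divided between them.

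Within the early window, 1 h and 2 h had 1 array each and equal weight, and a gene could likewise enter through 1 high array, so these differences too are a description. At 2 h, 7 trough genes were called lower than at 1 h and 4 higher, where 0.45% and 0.191% of all genes were called (limma). JUN (-0.566 ± 0.0471) and EDN1 (-0.540 ± 0.0541) had the lowest differences, followed by CXCL8 (-0.405 ± 0.0852) and PDLIM5, an actin-associated PDZ and LIM protein (-0.383 ± 0.0451). TUFT1, MCL1 and AMOTL2 were the others called lower. The 4 called higher at 2 h were SNAI1, a repressor of E-cadherin (0.612 ± 0.0478), SIK1, a salt-inducible kinase (0.313 ± 0.0484), NAB2 (0.288 ± 0.0532) and LINC01106 (0.225 ± 0.0459). The single 2 h array of SNAI1 stood at 1.19, and all of its other arrays lay between 0.579 and 0.807. Its 0.5 and 1 h arrays lay below its mean of 0.681 from 4 to 8 h, so that SNAI1 entered the set through the 2 h array. Of these 11 calls, 6 were lost with the replicate number as a block (AMOTL2, CXCL8, LINC01106, MCL1, NAB2 and TUFT1, adjusted p up to 0.205) and 3 after quantile normalisation (AMOTL2, CXCL8 and MCL1). The call of CXCL8 was also lost without 48 h replicate 2 or 48 h replicate 3.

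The 4, 6 and 8 h arrays all carry replicate number 1, as does the 1 h array, whereas 2 h is replicate 3 and 12 h and 18 h are replicate 2. At the times with replicates, replicate 1 had shares close to those of all eligible genes. It was the lowest of the 3 arrays in 37.3% of trough genes at 24 h (37.5% of eligible genes) and in 29.3% at 48 h (25.5%), and lower than replicate 3 in 59.3% at 0.5 h (56.4%). In a limma fit with time and replicate number, 0% of all genes were called between replicate 1 and the others (775 of 14675 had an unadjusted p under 0.05, 5 of them trough genes), and the median over trough genes was -0.000491. The highest differences were those of DEPTOR (0.0850 ± 0.0246), HKDC1 (0.0747 ± 0.0268), UBE2K (0.0668 ± 0.0387) and PTGS2 (0.0475 ± 0.0395), and the lowest those of CPEB2 (-0.104 ± 0.0276), C6orf141 (-0.0977 ± 0.0268), IRF2BPL (-0.0576 ± 0.0257) and LCAT (-0.0542 ± 0.0256). This fit takes replicate differences only from 0.5, 24 and 48 h, with 3 residual degrees of freedom. It cannot show how replicate 1 stood to the others from 4 to 8 h. The part of the replicate number in the trough was not tested, since no other replicate from 4 to 8 h was analysed here.

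The choice of genes depended on single arrays to different degrees. Of the 150 genes, 103 were chosen again when the 4 h array was left out, 116 when either 6 h or 8 h was, 115 for 2 h and 120 for 1 h. For any other single array it was 133 or more. With 12 h counted in the trough 113 were shared, and with replicate 1 arrays alone 100. A total of 10 trough genes had further probe sets, 21 in all, of which 13 had a depth above 0. This bar is lower than the smallest depth taken, 0.0538, and some of these depths were near 0, as in VPS51 (0.00147). The further probe sets of F8A1, some with identical scores, had depths of 0.00195 or -0.0411, against 0.0551 for the one kept. The second probe set of TPM1 had -0.0141 and that of CABLES1 -0.0959, while that of OVOL1 had 0.0575 and that of MEX3A 0.0644. ZNG1A, F8A1, RASA4, GTF2IRD2, SRSF8, PMS2P9 and DSTNP2 have near-identical copies in the genome, and their scores may not separate the copies.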

How the data were processed

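Transcripts of H1975 cells were measured on 15 Affymetrix GeneChip Human Gene 2.0 ST arrays. The deposited values are scores from Single Channel Array Normalisation (SCAN), with which the authors corrected each array alone for probe composition and standardised it on a log scale. Their version was not given in the sources used here. The authors left out arrays they judged outliers and annotated probe sets with NetAffx. No further step was taken between arrays, and scores are given in the scale of the deposited table.

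Of 39937 probe sets, 15426 carried exactly 1 gene symbol in the annotation used here. The other 24511, with no symbol or with several, were left out. For 534 genes with several probe sets the one with the highest mean score was kept, leaving 14675 genes, all matched by gene ID to RefSeq annotation of GRCh38.p14. Samples were grouped by the time in their labels. limma 3.58.1 in R 4.3.3 was fitted with time as a factor over all 14675 genes, with Benjamini-Hochberg adjustment, a threshold of 0.05 and 5 residual degrees of freedom from the replicated times. The test script was tested on simulated data. Python 3.11.15 was used for the other steps. The number of arrays limits the precision, and p-values measure only the spread between these arrays, which may be technical.

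The trough genes and the gene lists were chosen with earlier results of these data known. Genes were named by fixed ranks: the 25 deepest, the 4 on either side of the limit, up to 6 per list, and the ends of each tested difference and of the early and late excess. A motif search added YBX3 and ATXN1. The alternatives tried were quantile normalisation, centring on array medians, a minimum mean score of 0.5 in the tests, all named probe sets in place of 1 per gene, the replicate number as a block, windows in place of times, replicate 1 arrays alone, 12 h added to the trough, and leaving out each array in turn.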

Additional observations from a re-analysis of the deposited data

How the results depend on the processing

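No called difference of a trough gene turned its direction under the alternatives run. The depth stayed above 0 in 147 of the 150 genes without 4 h and with replicate 1 arrays alone, in 149 without 2 h, and in all under the others. For 8 h minus 4 h, in place of 7 genes and 2 trough genes, 2 and 1 were called after centring on array medians, after quantile normalisation or with a replicate block, and 24 and 8 when genes under a mean score of 0.5 were not tested. Leaving out single arrays gave 2 to 16 genes and 1 to 4 trough genes, the most without 24 h replicate 2. For 2 h minus 1 h, 94 genes and 11 trough genes were called, 33 and 5 with a replicate block, and 18 trough genes after the minimum mean score. Genes called from 4 to 8 h against 0.5 to 2 h numbered 717 in both directions, 432 with a replicate block, 154 with windows as a factor, 52 with replicate 1 arrays alone, and 446 (without 4 h) to 761 without single arrays. Against 18 to 48 h the count was 3589, and 1416 with replicate 1 arrays alone, and 2887 to 3884 without single arrays.

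For 24 h against 48 h, 1411 to 1806 genes and 47 to 58 trough genes were called without single arrays, 1968 and 72 with the minimum mean score, and 1830 and 61 with a replicate block. Of the 60 trough genes called, 42 kept their call under all alternatives run. The deviations of same-numbered arrays from their group means correlated by only 0.0103, 0.0281 and 0.0297 between 24 h and 48 h, so the numbers are not taken as pairs. The 12 h position held for 70 trough genes, 83 after quantile normalisation and 77 after centring. Causes were not tested.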
